A study of Rattus norvegicus with 18 samples.

Results

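The effect of cadmium on kidney RNA at 12 weeks was set against its effect at 6 weeks. For each gene the mean log2 signal of saline kidneys was subtracted from that of cadmium kidneys at 12 weeks, and the same difference at 6 weeks was then taken away. The result, an interaction, is called the difference between times here, and a positive value means that the cadmium effect stood higher at 12 weeks. By their labels 12 of the 18 arrays of the series enter it, all of SD rats. At 12 weeks 3 are of rats treated with CdCl2 and 3 with normal saline. At 6 weeks 3 are of rats treated with CdCl2 and 3 with normal saline. The remaining 6 arrays, of 1 day, served only the estimate of the spread between replicates. Dose, route, sex, age and hour of harvest are not in the labels. Arrays of a group are labelled biological replicates with no statement that each is a separate animal, so p-values measure the spread between these samples.

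Cadmium is taken up by the proximal tubule, where metallothioneins bind it and free metal loads cells with oxidants. The transcription factor NRF2 then binds antioxidant response elements, sites that the heme sensor BACH1 otherwise keeps repressed, and induces heme oxygenase, glutathione transferases, glucuronosyltransferases and export pumps. Injured tubules also attract macrophages, and interferon response genes are antiviral genes that IRF and STAT factors switch on together.

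The deposited values are log2 signals of whole kidney, so fewer cells of a type and less RNA per cell cannot be told apart. How the arrays were summarized is not given in the sources used here, and the scale ends at 19.93, so differences of log2 values were not read as calibrated folds. Array medians over all probe sets lay between 4.03 and 4.26. Odorant and vomeronasal receptor genes set a background level of 4.22. Markers of proximal tubule, thick ascending limb and collecting duct were above it in all 12 arrays. Lrp2 ran from 17.23 to 18.49, Umod from 19.72 to 19.89, near the end of the scale, and Aqp2 from 14.57 to 17.01. Slc5a2, also of the proximal tubule, varied more, from 7.56 to 15.32. The neutrophil genes Mpo and S100a8, the adrenal gene Cyp11a1 and the urothelial gene Upk3a were at or under the background level in 12 of 12. So was Pvalb, a marker of the distal convoluted tubule. Bmal1 minus Dbp, clock genes that peak at opposite times of day, was 1.02, -5.43 and 0.73 in cadmium kidneys at 12 weeks and 1.80, -0.17 and 2.70 in saline kidneys at 12 weeks. It was -7.15, -7.23 and 1.15 in cadmium kidneys at 6 weeks and -6.08, -5.87 and -6.73 in saline kidneys at 6 weeks. Saline kidneys of 12 and 6 weeks did not overlap in it, and replicate 2 of cadmium at 12 weeks and replicate 3 of cadmium at 6 weeks stood apart from their groups.

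Heme oxygenase and a reductase of reactive carbonyls led the comparison, and both had a larger cadmium effect at 12 weeks. Of 22084 genes tested 3 had a higher cadmium effect at 12 weeks than at 6 weeks, which is 0.0136% (limma, Benjamini-Hochberg adjusted p under 0.05), and 0 had a lower one (0.0%). At an unadjusted p under 0.05 there were 1018 higher (4.61%) and 1196 lower genes (5.42%). Among the 14440 genes with a mean above background in at least 1 of the 4 groups, 595 were higher and 1154 lower at that p. The 3 genes were Hmox1, Ptgr1 and LOC102552091, each with adjusted p = 0.0102. All 3 lost the call without saline replicate 2 of 6 weeks (adjusted p from 0.0520 to 0.0559, limma), where 0 genes were called, beside 3075 with a p under 0.05 before adjustment. The count was 12 higher and 5 lower genes without cadmium replicate 3 of 12 weeks, 7 higher without cadmium replicate 1 of 12 weeks, and 1 lower gene besides the 3 higher ones without saline replicate 3 of 12 weeks.

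Hmox1 encodes the inducible heme oxygenase, which opens the heme ring to biliverdin, iron and carbon monoxide. Its log2 signal was 13.35, 15.74 and 12.60 in cadmium kidneys at 12 weeks, against 4.91, 5.0 and 4.66 in saline kidneys at 12 weeks. At 6 weeks it was 8.21, 7.16 and 8.52 in cadmium kidneys, against 5.08, 5.30 and 4.84 in saline kidneys. Cadmium kidneys thus lay above saline kidneys at both times without overlap, and every 12 week cadmium kidney lay above every 6 week one. The cadmium effect was 9.04 (SE 0.55, adjusted p = 2.28e-06) at 12 weeks and 2.89 (SE 0.55, adjusted p = 0.0953) at 6 weeks, and the difference between times was 6.15 (SE 0.78, 95% interval 4.47 to 7.82). Between saline kidneys of 12 and 6 weeks Hmox1 was -0.22 apart. With only the 12 arrays in the fit the value of Hmox1 stayed at 6.15 with adjusted p = 0.129, and with each array's Bmal1 minus Dbp as a covariate it was 5.78 (adjusted p = 0.0635).

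Ptgr1 encodes prostaglandin reductase, which inactivates leukotriene B4 and reduces the double bond of reactive lipid aldehydes. Its signal was 10.84, 12.64 and 10.83 in cadmium kidneys at 12 weeks and 6.60, 6.98 and 7.21 in saline kidneys at 12 weeks. After 6 weeks its signal was 7.24, 7.12 and 7.29 in cadmium kidneys and 7.33, 7.50 and 7.01 in saline kidneys. Unlike Hmox1, Ptgr1 overlapped between the groups at 6 weeks, where the effect was -0.07 (SE 0.39, adjusted p = 0.962), while at 12 weeks it was 4.50 (SE 0.39, adjusted p = 1.07e-04). The difference between times was 4.57 (SE 0.56, 95% interval 3.38 to 5.76). With only the 12 arrays in the fit Ptgr1 had adjusted p = 0.0760.

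LOC102552091, a long non-coding RNA in RefSeq with no role known here, was named after its values were seen. It had 5.92, 5.87 and 5.74 in cadmium kidneys at 12 weeks, against 4.76, 4.79 and 4.85 in saline kidneys at 12 weeks. The 6 week values were 4.92, 4.81 and 5.04 in cadmium kidneys, against 4.99, 4.94 and 5.04 in saline kidneys. Its 12 week cadmium arrays stood above the other 9, a pattern of 318 genes or 1.44% of all, and those 9 lay between 4.76 and 5.04. The difference between times was 1.11 (SE 0.14), on a smaller scale than that of Hmox1 and Ptgr1 and with less spread between arrays.

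**Figure D1:**
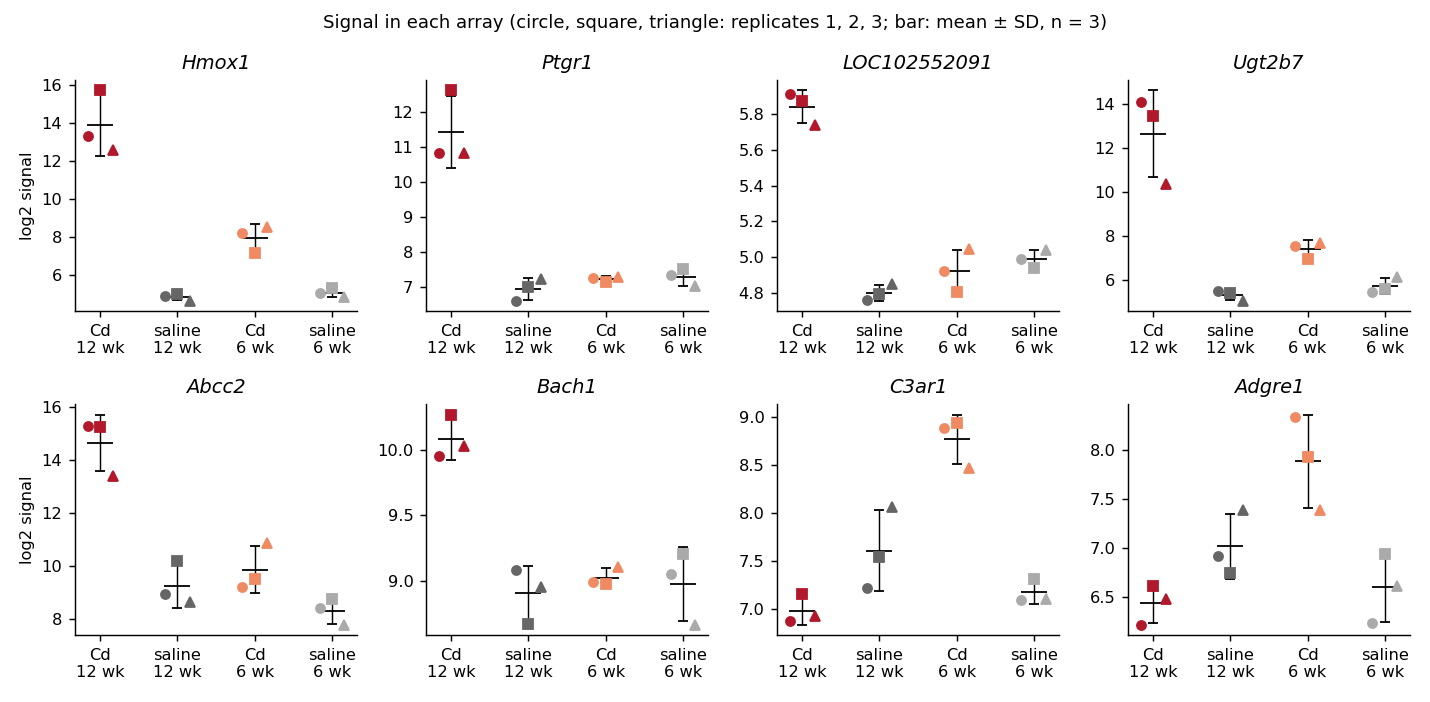
Log2 signal of 8 genes in each of the 12 arrays, with the group mean ± SD (n = 3) as bars, for cadmium at 12 weeks, saline at 12 weeks, cadmium at 6 weeks and saline at 6 weeks. Hmox1 and Ptgr1 are highest in the 3 cadmium arrays of 12 weeks (12.60 to 15.74 and 10.83 to 12.64), while C3ar1 and Adgre1 are highest in those of 6 weeks by mean. The y axes differ between genes and do not start at 0.

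Below the threshold, Ugt2b7 had the largest difference among the higher genes named by the rule on the smallest p. Ugt2b7, a glucuronosyltransferase that couples glucuronic acid to steroids and drugs, had 14.10, 13.48 and 10.40 in cadmium kidneys at 12 weeks, against 5.50, 5.44 and 5.08 in saline kidneys at 12 weeks. At the earlier time it had 7.57, 6.95 and 7.71 in cadmium kidneys, against 5.45, 5.59 and 6.15 in saline kidneys. The groups did not overlap at either time. The effect was 7.32 (SE 0.65, adjusted p = 1.07e-04) at 12 weeks and 1.68 (SE 0.65, adjusted p = 0.433) at 6 weeks, and the difference between times of 5.64 (SE 0.92) had adjusted p = 0.0796. Related Ugt2b genes share sequence, so a probe set may read more than 1 of them, and the same holds for the glutathione transferases.

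The other genes named on that side were Mypn, a sarcomere protein (0.92, adjusted p = 0.0698), Apoc2, the cofactor of lipoprotein lipase (1.62, adjusted p = 0.0934), Tdrd3, a reader of methylated arginine (1.32), Cimap2 (2.13) and Gabrr1, a subunit of a GABA receptor (0.74), the last 3 with adjusted p from 0.140 to 0.141. Apoc2 had 6.99, 6.97 and 7.67 in cadmium kidneys at 12 weeks, 5.71, 5.52 and 5.61 in saline kidneys at 12 weeks, and 5.36 to 5.72 over all 6 arrays of 6 weeks. Cimap2 had 5.24, 6.83 and 5.79 in cadmium kidneys at 12 weeks, against 3.63, 3.64 and 3.48 in saline kidneys at 12 weeks and 3.61 to 4.18 over the 6 arrays of 6 weeks. Outside cadmium at 12 weeks Cimap2, Mypn and Gabrr1 thus lay at or under the background level, and in those 3 arrays they were above it. Pir, an iron-containing nuclear protein that NRF2 induces in human cells, was named after its values were seen. It had 7.82, 9.53 and 8.71 in cadmium kidneys at 12 weeks, against 6.71, 5.56 and 5.79 in saline kidneys at 12 weeks. At 6 weeks it had 6.08, 6.06 and 6.41 in cadmium kidneys, against 5.77, 6.07 and 5.89 in saline kidneys, and the difference between times was 2.39 (SE 0.49, adjusted p = 0.259).

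The RefSeq promoter table (build GRCr8, 250 bases before to 50 after each start) was searched on both strands for the core of the antioxidant response element, TGACNNNGC. Of the 33469 promoters 12.1% held it. Of the 8 higher genes named by the rule 5 had a promoter in the table and 1 held the core, Cimap2, and of the 8 lower ones 7 had a promoter and 2 held it, Trpc6 and Slc6a6. Outside the rule, matches were read only for Pir and, among genes described further on, for Gsta3, Txnrd1, Ephx1 and Abcc2. Gsta3, Txnrd1 and Ephx1 each had 1 promoter with a match, starting at -17, -78 and -57 from its start, and 1 without. The promoter of Abcc2 held 0 matches. For these genes the 250 bases before a start were read, while the 12.1% is per promoter and also covers the 50 bases after it. Cimap2, named by the rule, and Pir and Gsta3, chosen as examples after their matches to TGACNNNGC were seen, are shown so that the letters can be seen beside the values. The other promoter of Gsta3, those of Txnrd1, Ephx1 and Abcc2, and those of Trpc6 and Slc6a6 are not printed. Each promoter shown is given with the 250 bases before the start, 5′ to 3′ on the strand of the gene, and the matches to TGACNNNGC in capitals. A match is a description of the letters and says nothing of binding.
Pir, chrX:33851050-33851299, minus strand, matches starting at -114 and -9 from the start: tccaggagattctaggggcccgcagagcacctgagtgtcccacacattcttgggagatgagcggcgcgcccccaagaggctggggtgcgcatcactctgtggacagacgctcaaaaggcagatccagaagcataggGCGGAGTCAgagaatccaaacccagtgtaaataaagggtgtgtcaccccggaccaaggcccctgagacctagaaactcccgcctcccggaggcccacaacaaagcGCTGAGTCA
Gsta3, chr9:31154739-31154988, plus strand, match starting at -17: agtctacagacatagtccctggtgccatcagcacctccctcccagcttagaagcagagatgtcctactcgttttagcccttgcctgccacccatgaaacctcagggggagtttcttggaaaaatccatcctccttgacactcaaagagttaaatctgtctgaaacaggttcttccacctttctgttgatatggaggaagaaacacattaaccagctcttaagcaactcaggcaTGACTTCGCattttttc
Cimap2, chr5:126630693-126630942, minus strand, match starting at -48: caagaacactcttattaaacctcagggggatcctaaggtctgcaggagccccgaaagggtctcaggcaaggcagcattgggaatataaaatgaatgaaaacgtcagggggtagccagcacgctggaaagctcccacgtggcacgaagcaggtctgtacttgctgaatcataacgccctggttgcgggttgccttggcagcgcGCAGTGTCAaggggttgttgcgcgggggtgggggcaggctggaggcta

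The genes of heme breakdown and of the NRF2 and BACH1 switch gave 13 measured members, of which 1, Hmox1, passed. Of the 13 members 4 had an unadjusted p under 0.05 on the higher side and 1 on the lower side, and 9 were positive, with a median of 0.32 where all genes had 0.01. Among all genes 51.0% were positive, and among the 14440 genes above background in at least 1 of the 4 groups 39.4% were, with a median of -0.09. With arrays left out in turn the median of the heme list ran from 0.18 (without saline replicate 2 of 12 weeks) to 0.49 (without saline replicate 1 of 12 weeks). Bach1, the repressor that heme removes from these promoters, had 9.95, 10.27 and 10.03 in cadmium kidneys at 12 weeks, against 9.09, 8.68 and 8.96 in saline kidneys at 12 weeks. After 6 weeks its signal was 8.99, 8.97 and 9.11 in cadmium kidneys, against 9.05, 9.21 and 8.67 in saline kidneys. The 12 week cadmium arrays stood above the other 9, with an effect of 1.18 (SE 0.15, adjusted p = 0.00266) at 12 weeks and 0.05 (SE 0.15) at 6 weeks, and the difference between times of 1.13 (SE 0.21) had adjusted p = 0.155. Nfe2l2, which encodes NRF2 itself, was 0.06 apart between the times (SE 0.16, 95% interval -0.29 to 0.40) and lay between 8.11 and 8.42 in all 12 arrays. Nqo1, a quinone reductase and common NRF2 readout, had 5.92, 7.06 and 7.28 in cadmium kidneys at 12 weeks, 6.49, 5.35 and 5.25 in saline kidneys at 12 weeks, and 5.46 to 5.89 over the 6 arrays of 6 weeks. Its groups overlapped at 12 weeks through saline replicate 1, and the difference of 0.89 (SE 0.47) had adjusted p = 0.524. Osgin1, a growth inhibitor induced by oxidative stress, went the other way at -3.27 (SE 1.08, adjusted p = 0.410), with 7.72, 10.66 and 11.75 in cadmium kidneys at 12 weeks and 12.50, 11.62 and 10.69 in saline kidneys at 12 weeks. At 6 weeks Osgin1 had 11.88, 11.93 and 11.92 in cadmium kidneys and 9.51, 10.47 and 10.60 in saline kidneys.

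Enzymes and pumps that conjugate and export toxic compounds had more members on the higher side than on the lower side at an unadjusted p under 0.05, but apart from Ptgr1 none passed. Glutathione transferases had 4 of 19 higher and 0 lower (median 0.35), glucuronidation and sulfation 3 of 13 higher and 0 lower (median 0.24), and efflux pumps 3 of 11 higher and 1 lower (median 0.03). Carbonyl reductases and epoxide hydrolases had 2 of 19 higher and 0 lower (median 0.05), 1 of them Ptgr1. Among all genes 4.61% were higher at that p, and among the 14440 above background 595 were. The carbonyl reductases other than Ptgr1 were thus near the share of all genes. The median of the glutathione transferases was 0.01 without saline replicate 2, 0.09 without cadmium replicate 2 and 0.65 without cadmium replicate 1 of 12 weeks. That of glucuronidation and sulfation was 0.05 without cadmium replicate 2 of 12 weeks, 0.44 without saline replicate 1 of 12 weeks and 1.03 over members above background. That of the efflux pumps ran from -0.11 (without saline replicate 3 of 12 weeks) to 0.16 (without cadmium replicate 2 of 12 weeks), and that of the carbonyl reductases from -0.00446 to 0.10, so neither list kept its sign. Abcc2, the apical pump for glutathione and glucuronide conjugates, had 15.29, 15.26 and 13.41 in cadmium kidneys at 12 weeks, against 8.93, 10.18 and 8.62 in saline kidneys at 12 weeks. The 6 week values were 9.21, 9.49 and 10.86 in cadmium kidneys, against 8.40, 8.73 and 7.76 in saline kidneys. The effect was 5.41 (SE 0.61, adjusted p = 0.00106) at 12 weeks and 1.56 (SE 0.61, adjusted p = 0.438) at 6 weeks, and the difference of 3.85 (SE 0.86) had adjusted p = 0.268. Abcc2 was thus higher in cadmium kidneys without overlap at both times, with the wider gap at 12 weeks.

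Smaller values in the same direction came from Gsta3, a glutathione transferase of the alpha class, with 8.28, 9.12 and 7.86 in cadmium kidneys at 12 weeks, 6.94, 6.42 and 6.78 in saline kidneys at 12 weeks, and 6.60 to 7.41 over the 6 arrays of 6 weeks (difference 1.41, SE 0.35, adjusted p = 0.315). Slc7a11, the cystine importer that feeds glutathione synthesis, had 4.64, 6.48 and 5.60 in cadmium kidneys at 12 weeks and 3.55 to 4.09 in the other 9 arrays (1.68, SE 0.43, adjusted p = 0.330). Txnrd1, thioredoxin reductase, had 12.18, 12.71 and 12.14 in cadmium kidneys at 12 weeks, 11.08, 10.47 and 10.89 in saline kidneys at 12 weeks and 10.58 to 11.40 over the 6 arrays of 6 weeks (1.03, SE 0.29, adjusted p = 0.373). In these 3 genes the 12 week cadmium arrays lay above the other 9. For Slc7a11 those other 9 arrays all lay under the background level, so only its 12 week cadmium arrays had signal above it. Ephx1, the microsomal epoxide hydrolase, had 17.04, 17.65 and 16.10 in cadmium kidneys at 12 weeks, against 13.39, 14.23 and 13.72 in saline kidneys at 12 weeks. At 6 weeks Ephx1 had 15.57, 14.20 and 15.80 in cadmium kidneys, against 13.89, 14.51 and 13.55 in saline kidneys, so that its groups overlapped there (difference between times 1.94, SE 0.77, adjusted p = 0.451). Ugdh, which makes the glucuronic acid donor, was 1.62 apart (SE 0.59), Gstm2 1.43 (SE 0.62), Ugt2b37 1.41 (SE 0.46), Abcc3 0.75 (SE 0.35) and Abcc1 0.60 (SE 0.20), all with adjusted p between 0.407 and 0.494. Gstm1 and Akr1b8, named after their values were seen, had larger values with wider errors, 2.68 (SE 1.38) and 3.37 (SE 1.74), both with adjusted p over 0.5. Their 6 week cadmium effects were already 1.58 and 2.98, and Akr1b8 in saline replicate 1 of 12 weeks had 10.05 where the other 2 had 6.17 and 5.97.

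Glutathione synthesis and cystine supply had 3 of 12 members positive and a median of -0.30, with Slc7a11 the 1 member under an unadjusted p of 0.05. Thioredoxins, peroxiredoxins and NADPH supply had 6 of 17 positive, with 1 member at that p in each direction (Txnrd1 higher, Idh1 lower at -1.56) and a median of -0.10. That share, 35.3%, was near the 39.4% of genes above background, and the median was 0.03 without saline replicate 3 of 6 weeks and 0.21 with quantile normalization. Without saline replicate 3 of 6 weeks the median of glutathione synthesis was -0.13.

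Metal handling gave no difference that passed. Of 22 members 8 were positive (36.4%, near the 39.4% of genes above background), with a median of -0.13 that ran from -0.25 to -0.08 with arrays left out in turn. With each array's proximal tubule mean as a covariate the median was 0.0055. Of these members 2, the zinc importers Slc39a4 (0.84, SE 0.35) and Slc39a5 (1.14, SE 0.47), had an unadjusted p under 0.05, both with adjusted p = 0.461. Slc39a4 had a group mean above the background level only in cadmium kidneys at 12 weeks (4.76). The metallothioneins Mt1 and Mt2A could not be read, since in all 12 arrays Mt1 lay between 19.01 and 19.93 and Mt2A between 19.79 and 19.93, at the end of the scale. Slc30a1, the zinc exporter that MTF1 induces, had 9.71, 11.38 and 11.52 in cadmium kidneys at 12 weeks, against 10.59, 8.88 and 9.46 in saline kidneys at 12 weeks. At the earlier time it had 10.42, 10.72 and 10.63 in cadmium kidneys, against 9.02, 9.73 and 9.57 in saline kidneys. Its cadmium effects, 1.23 and 1.15 (SE 0.44 each), differed by 0.08 (SE 0.62, 95% interval -1.26 to 1.41), and the groups overlapped at 12 weeks but not at 6 weeks. Iron handling had 11 of 17 positive with a median of 0.03 (-0.01 without saline replicate 2 of 6 weeks and 0.16 without cadmium replicate 3 of 12 weeks), led by the transferrin receptor Tfrc (1.50, SE 0.46, adjusted p = 0.386), and by ceruloplasmin, Cp, on the lower side (-1.78, SE 0.70, adjusted p = 0.451). Tfrc had 10.73, 10.58 and 11.71 in cadmium kidneys at 12 weeks and 8.61 to 9.72 in the other 9 arrays.

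**Figure D2:**
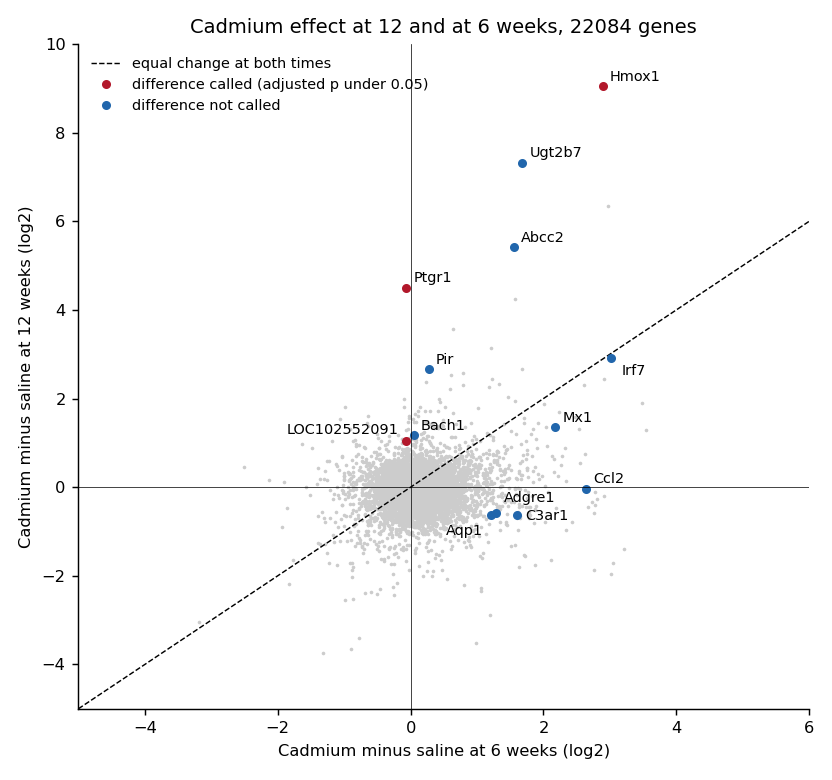
Cadmium minus saline in log2 signal at 12 weeks (y) against the same at 6 weeks (x) for the 22084 genes (grey), with named genes in colour and the line of equal change dashed. The vertical distance from the line is the difference between times: Hmox1 (6.15), Ugt2b7 (5.64) and Ptgr1 (4.57) stand above it, Irf7 (-0.11) lies close to it, and Ccl2 (-2.68) and C3ar1 (-2.22) stand below it.

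On the lower side no gene passed, and of the 8 genes named by the rule C3ar1 had the smallest p. C3ar1, the receptor for the complement fragment C3a, had 6.87, 7.15 and 6.92 in cadmium kidneys at 12 weeks, against 7.22, 7.54 and 8.06 in saline kidneys at 12 weeks. At 6 weeks it had 8.89, 8.94 and 8.47 in cadmium kidneys, against 7.09, 7.31 and 7.11 in saline kidneys. Cadmium kidneys thus lay below saline kidneys at 12 weeks and above them at 6 weeks, without overlap at either time. The effects were -0.62 (SE 0.29, adjusted p = 0.551) and 1.60 (SE 0.29, adjusted p = 0.0765), and the difference between times was -2.22 (SE 0.41, adjusted p = 0.150). Slc15a3, a lysosomal peptide transporter of immune cells, was -1.12 apart (SE 0.23), and Slc6a6, the taurine transporter, -2.18 (SE 0.45), both with adjusted p = 0.259. Trpc6, a calcium channel of podocytes and smooth muscle, was -1.09 apart (SE 0.22), and Acvr1c, an activin receptor, -2.30 (SE 0.50). The other 3 named by the rule, Zfp950l4, B3gat1 and Dpp8, lay between -1.37 and -0.55. For Slc6a6 and Acvr1c the saline kidneys themselves stood 1.43 and 1.27 higher at 12 weeks than at 6 weeks, while for C3ar1 the cadmium kidneys were -1.78 apart (12 minus 6 weeks, limma, adjusted p = 0.0188).

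The macrophage and dendritic cell list had 4 of 20 members positive and a median of -0.77, with 5 lower and 0 higher at an unadjusted p under 0.05. Among the 14440 genes above background 1154 were lower and 595 higher at that p. The median cadmium effect of the macrophage list was 0.13 at 12 weeks and 1.22 at 6 weeks. The mean level of the list was 6.20, 6.72 and 6.18 in cadmium kidneys at 12 weeks, 6.21, 6.16 and 6.27 in saline kidneys at 12 weeks, 7.15, 7.18 and 6.62 in cadmium kidneys at 6 weeks, and 6.13, 6.24 and 5.87 in saline kidneys at 6 weeks. The cadmium arrays of 6 weeks thus lay above the saline arrays of 6 weeks, and at 12 weeks only replicate 2 of cadmium lay above its saline arrays. Adgre1, a surface marker of tissue macrophages, had 6.21, 6.61 and 6.48 in cadmium kidneys at 12 weeks, against 6.92, 6.74 and 7.38 in saline kidneys at 12 weeks. After 6 weeks its signal was 8.34, 7.93 and 7.39 in cadmium kidneys, against 6.24, 6.94 and 6.61 in saline kidneys, and the difference of -1.87 (SE 0.45) had adjusted p = 0.306. The other members named by the rule were the microbicidal pore protein Mpeg1 (-1.55, SE 0.49) and the receptor adaptors Fcer1g (-1.49, SE 0.44) and Tyrobp (-1.22, SE 0.43). Leaving out cadmium replicate 2 of 6 weeks brought the list median to -0.49 and leaving out cadmium replicate 3 of 6 weeks to -1.09, and without both arrays that stood apart in Bmal1 minus Dbp, an alternative chosen after seeing the data, it was -1.23.

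Inflammatory signalling had 9 of 32 members positive and a median of -0.30, with 5 lower and 0 higher at an unadjusted p under 0.05. Of the 14440 genes above background 1154 were lower at that p. Ccl2, the chemokine that draws monocytes, had 6.58, 6.81 and 6.62 in cadmium kidneys at 12 weeks, against 7.34, 6.06 and 6.70 in saline kidneys at 12 weeks. The 6 week values were 8.75, 8.01 and 7.90 in cadmium kidneys, against 6.10, 5.35 and 5.29 in saline kidneys. The groups overlapped at 12 weeks and not at 6 weeks, with effects of -0.03 (SE 0.45) and 2.64 (SE 0.45, adjusted p = 0.0554), and the difference of -2.68 (SE 0.63) had adjusted p = 0.306. Il1b (-1.10, SE 0.31), the adhesion molecule Icam1 (-1.46, SE 0.47) and Tnfaip3, a brake on NF-kB (-0.90, SE 0.29), also had a lower cadmium effect at 12 weeks than at 6 weeks, and none of them passed. Cxcl13, the B cell chemokine, named after its values were seen, had 12.30 in cadmium replicate 1 of 6 weeks and 6.03 to 9.67 in the other 11 arrays, and its difference of -4.76 (SE 1.66, adjusted p = 0.423) was -3.69 without that array. Lymphocyte markers had 3 of 18 positive with a median of -0.33, antigen presentation 0 of 20 with a median of -0.44, and neutrophil markers 8 of 11 with a median of 0.16. Only 3 of the 11 neutrophil markers had a mean above background in any of the 4 groups, against 13 of the 18 lymphocyte markers. Left-out arrays moved the lymphocyte median to -0.15 (saline replicate 1 of 12 weeks), the antigen presentation median to -0.18 (cadmium replicate 2 of 6 weeks) and the neutrophil median to 0.09 (cadmium replicate 1 of 12 weeks). With Bmal1 minus Dbp as a covariate the median of antigen presentation was -0.74.

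The interferon response list had more signal in cadmium kidneys than in saline kidneys at both times. Its median effect was 0.52 at 12 weeks, where 32 of 34 members were positive, and 0.87 at 6 weeks, where 34 of 34 were. The mean level of the list was 6.68, 6.90 and 6.67 in cadmium kidneys at 12 weeks, against 6.12, 6.17 and 5.90 in saline kidneys at 12 weeks. At the earlier time it was 7.22, 7.20 and 7.02 in cadmium kidneys, against 6.05, 6.17 and 6.01 in saline kidneys. The cadmium arrays lay above the saline arrays at both times, and those of 6 weeks above those of 12 weeks. Of the differences between times 7 of 34 were positive (median -0.30). Lower with an unadjusted p under 0.05 were 6 members, beside 1154 of the 14440 genes above background. Members with the lowest p were Ifit2 (-1.47, SE 0.53), Rsad2, which blocks viral budding (-1.11, SE 0.41), Mx1, an antiviral GTPase (-0.82, SE 0.31), and Gbp5, a guanylate-binding protein (-1.53, SE 0.60), with adjusted p from 0.437 to 0.451. Ifit2 had 8.0, 7.92 and 7.04 in cadmium kidneys at 12 weeks, 7.35, 7.05 and 7.43 in saline kidneys at 12 weeks, 8.83, 8.91 and 9.24 in cadmium kidneys at 6 weeks and 7.42, 7.06 and 6.97 in saline kidneys at 6 weeks. For Ifit2 the groups overlapped at 12 weeks and were apart at 6 weeks.

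**Figure D3:**
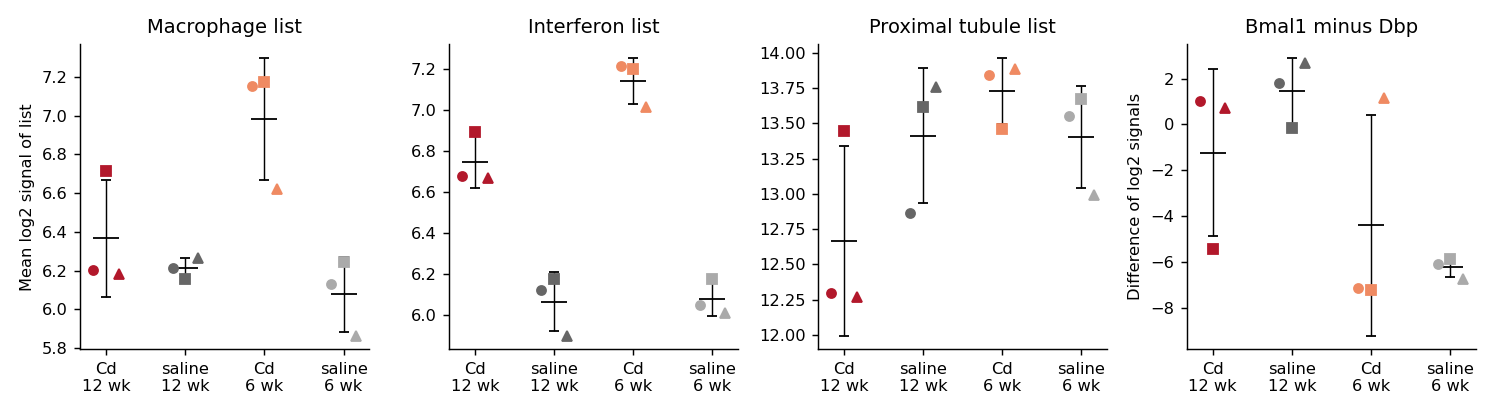
Mean log2 signal of the macrophage, interferon and proximal tubule lists, and Bmal1 minus Dbp, in each of the 12 arrays (circle, square and triangle for replicates 1, 2 and 3), with the group mean ± SD (n = 3) as bars. The interferon list is highest in cadmium at 6 weeks (7.02 to 7.22) and intermediate in cadmium at 12 weeks (6.67 to 6.90), and the arrays that stand apart in Bmal1 minus Dbp are replicate 2 of cadmium at 12 weeks and replicate 3 of cadmium at 6 weeks.

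A few genes of the interferon response passed at both times. Cadmium against saline called 64 higher (0.29%) and 8 lower genes (0.0362%) at 12 weeks and 8 higher (0.0362%) and 1 lower gene (0.00453%) at 6 weeks. Of the 72 genes called at 12 weeks 3 were called in the difference between times, and of the 9 called at 6 weeks 0 were. The 5 genes called at both times were Irf7, the interferon regulatory factor, Isg15, a ubiquitin-like modifier, Usp18, which removes it, Mx1, and Mmp12, the macrophage elastase. Irf7 had 9.25, 10.24 and 9.53 in cadmium kidneys at 12 weeks, against 6.99, 7.34 and 5.98 in saline kidneys at 12 weeks. At 6 weeks it had 10.47, 9.64 and 10.29 in cadmium kidneys, against 7.30, 7.50 and 6.56 in saline kidneys. Its effects of 2.91 and 3.01 (SE 0.41 each) differed by -0.11 with a 95% interval from -1.34 to 1.12. The intervals of the difference ran from -0.43 to 0.31 for Isg15, from -0.64 to 0.68 for Mmp12, from -0.87 to 0.10 for Usp18 and from -1.49 to -0.14 for Mx1, whose adjusted p was 0.451.

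Each set of called genes was also read at the time that had not chosen it. The 64 genes called higher at 12 weeks had a median effect of 1.22 there and of 0.22 at 6 weeks, where 49 of 64 were positive and 11 were over 1. Among all genes 49.0% were positive at 6 weeks and 1.43% were over 1. Among the 14440 genes above background in at least 1 group, to which 60 of the 64 belong, 8426 were positive at 6 weeks. The 8 genes called higher at 6 weeks had a median effect of 1.64 there and of 1.28 at 12 weeks, where 8 of 8 were positive. Only the value at the other time is free of the choice of genes.

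Lists of kidney segments lay on opposite sides of 0. The proximal tubule transport list had 1 of 29 members positive and a median of -1.01. At an unadjusted p under 0.05 it had 5 lower and 0 higher members, where 1154 of the 14440 genes above background were lower. The median cadmium effects of the proximal tubule list were -0.64 at 12 weeks and 0.23 at 6 weeks. Without cadmium replicate 3 of 12 weeks its median difference was -0.61. Its mean level was 12.29, 13.44 and 12.26 in cadmium kidneys at 12 weeks, 12.86, 13.62 and 13.75 in saline kidneys at 12 weeks, 13.84, 13.46 and 13.89 in cadmium kidneys at 6 weeks, and 13.55, 13.67 and 12.99 in saline kidneys at 6 weeks. Replicates 1 and 3 of cadmium at 12 weeks were the lowest of the 12 arrays, and replicate 2, the array with the higher Dbp, was level with saline kidneys. Aqp1, the water channel of the proximal tubule, had 16.30, 17.04 and 17.83 in cadmium kidneys at 12 weeks, against 17.90, 17.68 and 17.51 in saline kidneys at 12 weeks. After 6 weeks its signal was 18.08, 18.24 and 17.83 in cadmium kidneys, against 17.01, 16.76 and 16.76 in saline kidneys, and the difference of -1.84 (SE 0.43) had adjusted p = 0.306. The organic anion transporters Slco4c1 (-3.31, SE 1.41) and Slc22a7 (-1.01, SE 0.39) and the glucose transporter Slc5a1 (-1.41, SE 0.50) had adjusted p between 0.430 and 0.466. Slco4c1 varied within groups, with 8.35, 11.26 and 13.53 in cadmium kidneys at 12 weeks.

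Fatty acid oxidation had 5 of 30 members positive and a median of -0.47, with 3 lower and 0 higher at an unadjusted p under 0.05. The 3 were Acadvl (-0.76, SE 0.32), Hadha (-0.96, SE 0.40) and Cyp4a8 (-1.06, SE 0.42). Among the 14440 genes above background 1154 were lower and 595 higher at that p, so 3 of 30 was near the lower share. The median of fatty acid oxidation was -0.24 without saline replicate 3 of 6 weeks and -0.75 without cadmium replicate 2 of 12 weeks. The distal nephron and collecting duct list lay on the other side, with 18 of 23 positive, 4 higher and 0 lower at that p and a median of 0.58. The 4 were the thiazide-sensitive cotransporter Slc12a3 (2.38, SE 0.98), the kinase gene Wnk1 (1.66, SE 0.59) and the sodium channel subunits Scnn1a (1.49, SE 0.69) and Scnn1b (1.59, SE 0.62), with adjusted p from 0.430 to 0.494. Slc12a3 had 17.59, 15.63 and 16.43 in cadmium kidneys at 12 weeks, 14.10, 16.33 and 16.54 in saline kidneys at 12 weeks, 15.34, 15.70 and 16.08 in cadmium kidneys at 6 weeks and 17.27, 16.61 and 17.70 in saline kidneys at 6 weeks. Its groups overlapped at 12 weeks, and at 6 weeks cadmium lay below saline. Without cadmium replicate 1 of 12 weeks the median of the distal list was 0.19, and it was 0.99 without replicate 2 and 1.01 without replicate 3 of that group. Podocyte markers had 6 of 7 positive and a median of 0.84, none with an unadjusted p under 0.05, and the median was 0.51 without cadmium replicate 1 and 1.28 without cadmium replicate 3 of 12 weeks. With each array's proximal tubule mean as a covariate the medians were 0.24 for proximal tubule transport, a list that this covariate was made from, 0.02 for fatty acid oxidation, 0.17 for the distal list and -0.40 for macrophages. With the same covariate 8 genes were called higher and 0 lower, and Hmox1 (6.91) and Ptgr1 (5.43) kept their calls. With each array's Bmal1 minus Dbp as a covariate instead, the medians were -1.29 for proximal tubule transport, -0.77 for fatty acid oxidation, 0.83 for the distal list and -1.20 for macrophages.

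**Figure D4:**
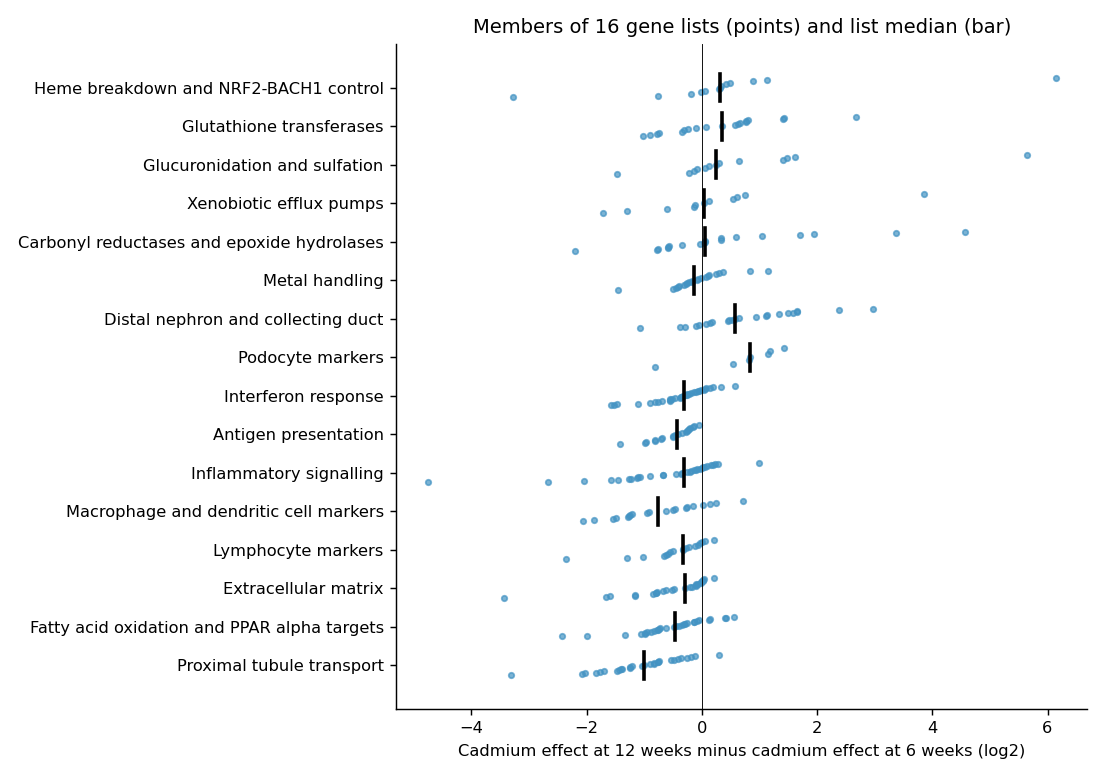
Difference between times (cadmium effect at 12 weeks minus that at 6 weeks, log2) of each measured member of 16 gene lists (points), with the list median as a black bar. Distal nephron (median 0.58) and podocyte markers (0.84) lie to the right of 0, macrophage markers (-0.77) and proximal tubule transport (-1.01) to the left, and Hmox1 is the point farthest to the right, at 6.15.

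The lists of injury and growth were mixed. Tubular injury markers had 8 of 23 positive (34.8%, near the 39.4% of genes above background) with a median of -0.14. The median was 0.02 without saline replicate 1 of 12 weeks, the array with the highest mean level of this list (9.08, against 8.13 and 7.83 in the others of its group), and -0.33 without cadmium replicate 3 of 6 weeks. Among its members Lgals3, galectin-3 (0.94, SE 0.28), and Fgb, fibrinogen beta (0.75, SE 0.26), were higher with an unadjusted p under 0.05, and 1 member was lower. Havcr1, the injury marker KIM-1, named after its values were seen, had 8.26, 8.94 and 11.32 in cadmium kidneys at 12 weeks, against 10.08, 7.35 and 5.96 in saline kidneys at 12 weeks. The 6 week values were 5.67, 6.32 and 5.95 in cadmium kidneys, against 5.80, 5.83 and 5.68 in saline kidneys. Saline replicate 1 of 12 weeks was thus among the highest, and the difference of 1.50 (SE 1.16) had adjusted p = 0.638. Of 20 p53 targets 12 were positive (median 0.07, and -0.00328 without saline replicate 2 of 6 weeks). Higher at that p were Plk2, a stress-induced kinase (1.52, SE 0.52), Mdm2, the p53 ligase (0.53, SE 0.16), and Bax, a pore former of apoptosis (0.34, SE 0.12). Lower at that p were 2 members, among them Perp (-1.90, SE 0.72). Plk2 had 7.98, 8.81 and 8.16 in cadmium kidneys at 12 weeks, 6.00, 6.30 and 5.70 in saline kidneys at 12 weeks, 6.91, 6.69 and 6.39 in cadmium kidneys at 6 weeks and 5.95, 5.93 and 5.73 in saline kidneys at 6 weeks. Cadmium kidneys lay above saline kidneys at both times for Plk2, with the wider gap at 12 weeks (adjusted p = 0.420). Cell cycle genes had 23 of 32 positive with a median of 0.19 (0.10 without saline replicate 2 of 12 weeks) and 1 member, cyclin B2 (Ccnb2, 0.71, SE 0.32), at that p. Extracellular matrix had 5 of 27 positive and a median of -0.29 (-0.18 without saline replicate 1 of 6 weeks). It had 4 lower members at that p, among them Tgfb1 (-1.66, SE 0.54) and decorin, Dcn (-3.43, SE 1.23), beside 1154 of the 14440 genes above background.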

How the data were processed

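Biotin-labelled cRNA made from total RNA of whole kidney was read on Affymetrix arrays, per the labels' protocols. The deposited table holds log2 signals per probe set, and how the authors summarized and normalized them is not given in the sources used here. It has 70570 probe sets: 186 controls, 23437 naming 1 gene, 505 several and 46442 none. Where several probe sets named a gene (1182 genes) the brightest stood for it, which gave 22084 genes. The background level, 4.22, is the percentile 95 of the mean signal among 1276 receptor genes of smell. No filter on dim genes was applied.

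Means of the 6 groups of 18 arrays were fitted in limma 3.58.1 (R 4.3.3) with lmFit and eBayes, where 12 degrees of freedom were residual and 2.45 came from the prior. Tests were two-sided, with Benjamini-Hochberg adjusted p under 0.05 over all genes. The fit was tested on simulated data. Arrays have no depth in reads, so their number limits the precision. Tables and plots used Python 3.11.15, pandas 2.3.3 and matplotlib 3.10.9.

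The comparison, gene lists and members were chosen with earlier results of these data known. Genes named were the called ones with a proper symbol and a mean above background, then those with the smallest p up to 8 per direction, up to 4 members per list by p, and any heme, NRF2 or metal handling gene. Named outside this rule, after their values were seen, were LOC102552091, Pir, Gstm1, Akr1b8, Havcr1, Calb1, Cxcl13, Isg15, Irf7, Usp18 and Mmp12. Lists are described by counts and medians, without a test. The alternatives were other array sets, array weights, variance priors, scalings, filters, probe set rules, a replicate block, covariates for proximal tubule level and clock phase, and each array left out in turn.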

Additional observations from a re-analysis of the deposited data

Results flagged for a closer look

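These 3 results stand here because the cadmium effect differed between the times by a test of that difference (limma, Benjamini-Hochberg adjusted p = 0.0102 each): Hmox1 by 6.15, Ptgr1 by 4.57 and LOC102552091 by 1.11, with the arrays of each given above.

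One further signal lay outside the genes compared above. Probe set TC0400003852.rn.1 stood for none of the 22084 genes. Its difference between times was 1.51 (SE 0.17) when all probe sets other than controls were fitted together (limma, Benjamini-Hochberg adjusted p = 0.0175). Its mean log2 signal was 6.17 ± 0.07 in cadmium kidneys at 12 weeks and 4.93 ± 0.20 in saline kidneys at 12 weeks, and 4.74 ± 0.06 in cadmium kidneys at 6 weeks and 5.01 ± 0.09 in saline kidneys at 6 weeks (SD, n = 3 each).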

How the results depend on the processing

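The main count was 3 higher and 0 lower genes. It was 1 higher with only the 12 arrays in the fit, 11 higher and 3 lower with array weights, 5 higher with arrays centred on their median, 7 higher with quantile normalization and 8 higher with the proximal tubule covariate. Leaving out each array in turn gave 0 to 12 higher and 0 to 5 lower genes. The other alternatives gave 2 to 4 higher and 0 lower. The replicate numbers did not pair the samples (correlations of deviations over 0.1 in 3 of 18 same-numbered pairs and 12 of 36 others, and 4 of 12 arrays closest to their own number), and with replicate number as a block 3 genes were higher and 0 lower. Hmox1, Ptgr1 and LOC102552091 kept their direction in all 25 alternatives and their call in 22, 23 and 24. Genes with a difference near 0 changed sign. Irf7 was 0.16 with array weights, 0.0691 with quantile normalization, 0.0374 with the proximal tubule covariate and -0.50 to 0.18 without single arrays. Isg15 was 0.0385 with the clock covariate. Mmp12 was -0.00506 with quantile normalization and -0.24 to 0.27 without single arrays. Nfe2l2 was -0.0935 with the clock covariate, -0.0603 without both arrays apart in clock phase and -0.0347 to 0.13 without single arrays. Slc30a1 was -0.0326 with the proximal tubule covariate, -0.16 without both arrays apart in clock phase and -0.30 to 0.66 without single arrays. Of 924 list medians recomputed under the alternatives 52 moved by more than the spread between replicates, and among those that changed sign with a covariate or with arrays left out were proximal tubule transport, fatty acid oxidation and the circadian clock. The cause was not tested. With 3 arrays per group, a difference of differences carries the error of 4 means, and genes near 4.22 or 19.93 can show only part of a change.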

Other observations

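Other lists, not described above, are given by counts of positive members and the median of the difference between times, beside 0.01 for all genes and -0.09 for the 14440 genes above background in at least 1 group. Calcium, phosphate and vitamin D genes had 11 of 19 positive and a median of 0.14, with the magnesium channel Trpm6 (1.23, SE 0.49) and the calcium pump Atp2b4 (1.48, SE 0.62) higher, and the phosphate transporter Slc34a2 (-2.89, SE 0.91) and the receptor Fgfr1 (-0.66, SE 0.19) lower, at an unadjusted p under 0.05 and none called in limma. Calb1, the calcium-binding protein of the distal tubule, was 2.97 apart (SE 1.42, adjusted p = 0.503) and was named after its values were seen. Its signal was 16.06, 14.13 and 14.84 in cadmium kidneys at 12 weeks, 11.71, 15.84 and 16.09 in saline kidneys at 12 weeks, 14.99, 12.32 and 14.39 in cadmium kidneys at 6 weeks, and 16.10, 16.84 and 16.29 in saline kidneys at 6 weeks, with saline replicate 1 of 12 weeks and cadmium replicate 2 of 6 weeks well below the rest of their groups. Myc, a transcription factor of growth, had 7.92, 7.81 and 7.65 in cadmium kidneys at 12 weeks, against 6.89, 6.75 and 5.70 in saline kidneys at 12 weeks. At 6 weeks Myc had 6.22, 6.32 and 6.44 in cadmium kidneys, against 5.81, 5.92 and 5.99 in saline kidneys, with no overlap at either time and a difference of 0.93 (SE 0.32, adjusted p = 0.421). It belongs to the immediate early genes, of which 5 of 19 were positive (median -0.34).

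Cholesterol synthesis had 3 of 16 positive and a median of -0.42, with Msmo1 (-1.02, SE 0.38), Nsdhl (-0.64, SE 0.28) and Stard4 (-0.42, SE 0.19) lower at an unadjusted p under 0.05. Heat shock proteins had 10 of 19 positive (median 0.03), endoplasmic reticulum stress 5 of 24 (-0.22), autophagy and lysosome 7 of 19 (-0.18), the respiratory chain 6 of 29 (-0.19) and endothelial markers 6 of 14 (-0.27). Without saline replicate 1 of 12 weeks the medians were -0.08 for the immediate early genes and -0.06 for endoplasmic reticulum stress. Without saline replicate 3 of 6 weeks they were -0.22 for cholesterol synthesis, -0.02 for autophagy and -0.05 for the respiratory chain. Calcium, phosphate and vitamin D had 0.05 without that array, and the endothelial median was -0.03 without cadmium replicate 3 of 12 weeks. With quantile normalization the median was 0.10 for the respiratory chain and 0.05 for endoplasmic reticulum stress. With the proximal tubule covariate it was 0.18 for autophagy and 0.04 for endothelial markers. The respiratory chain, endoplasmic reticulum stress, autophagy and endothelial lists thus did not keep their sign. The circadian clock list had 12 of 19 positive and a median of 0.21, which was -0.29 without both arrays that stood apart in Bmal1 minus Dbp. Among lists of other tissues, red blood cells had 2 of 12 positive (median -0.17), adipose tissue 2 of 12 (-0.21), adrenal cortex 4 of 6 (0.06), urothelium 4 of 8 (0.02) and sex-linked genes 2 of 6 (-0.20). Of the adrenal cortex members 0 of 6 had a mean above background in any of the 4 groups, and of the urothelial ones 4 of 8 did.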
